A study of Mus musculus with 2 samples.

Results

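The probe sets described here are the 9160 of 45101 on the array that had no gene symbol in the platform annotation. Manufacturer's controls, whose identifiers start with AFFX, were left out. Of the remaining probe sets, 34945 belonged to 1 named gene, called named below, and 932 to several genes. The unnamed probe sets were selected on these signals, because many of them were higher with the Drd2-/- sample, so the differences between the genotypes below describe that choice and support nothing further.

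The study measured striatal RNA of a Drd2-/- male mouse sample and of a wild-type (WT) male mouse sample, 1 Affymetrix array each. Both samples were of C57BL/6 background, 2 months old and naïve. Striatal tissue was dissected manually, its total RNA was isolated with Trizol, and biotinylated cRNA was made for hybridisation. The number of animals behind each RNA, the way the Drd2-/- allele was made and the cells that lost the gene are not given in the sources used here. With 1 array per genotype no spread between samples exists, so every difference is given as a size, without an error or a test.

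A probe set is a group of short oligonucleotides designed against the end of a transcript sequence, and its signal summarises how much labelled cRNA bound to them. The designers of such arrays started from clustered sequences: full-length messenger RNAs, other cDNAs and expressed sequence tags (ESTs), which are single reads from the end of a cDNA clone. Probe sets that later annotation left without a symbol often rest on ESTs outside annotated exons, from noncoding transcripts, introns or extended transcript ends. Drd2 encodes the dopamine D2 receptor, a receptor of the striatal projection neurons of the indirect pathway.

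The deposited signal of Drd2 was 27.4 units on the Drd2-/- array and 3234.8 units on the WT array, the direction the sample labels give, whereas a second deposited table names the genotypes the other way round. All 8 measured markers of striatal projection neurons were present, among them Penk (preproenkephalin) at 21745 units in Drd2-/- and 21892.7 units in WT, and Ppp1r1b (DARPP-32) at 14018.8 and 16454.3 units. Their summed signal was 94118 units in Drd2-/- striatum and 95270 units in WT striatum, with a median log2 ratio of Drd2-/- over WT of -0.10. The ratios ran from -0.82 for Pdyn, the only one at least 1.5-fold lower, to 0.43 for Pde10a. Other probe sets of Tac1 and Rgs9 reached 1.12 and 1.40, and no other marker of this list had a probe set at least 2-fold higher. The 5 measured markers of cortical excitatory neurons summed to 645.3 units in Drd2-/- and 1825.1 units in WT. Of these 5, 4 were at least 1.5-fold lower in Drd2-/- (3.21% of all detected probe sets were), where Neurod6 was at 25.6 units, against 146.2 units in WT. The 4 markers of thalamus and septum summed to 533.8 units in Drd2-/- and 797.9 units in WT. Most of this was Ramp3, at 329.6 units in Drd2-/- and 553.2 units in WT. The 4 did not move together: 2 were at least 1.5-fold lower in Drd2-/-, Tcf7l2 had a log2 ratio of -0.05 and Gbx2 one of 0.58. The 5 of choroid plexus and ependyma summed to 6376.4 units in Drd2-/- and 4024.5 units in WT. Most of this was Ttr (transthyretin), at 5347.5 units in Drd2-/- and 2985.2 units in WT. The 5 did not move together: their median log2 ratio was 0.05, from -0.77 for Foxj1 to 1.78 for Kcne2. Kcne2 was dim, at 27.5 units in Drd2-/- and 8 units in WT. Median log2 ratios were -0.38 for 4 oligodendrocyte, -0.06 for 5 astrocyte, -0.05 for 5 microglia and -0.27 for 4 detected endothelium markers. The oligodendrocyte markers were all lower in Drd2-/-, from -0.52 for Opalin to -0.14 for Mbp. The part of such tissue and cells in the results below was not tested. Fewer cells of a type and less RNA per cell cannot be told apart in tissue RNA.

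Among the unnamed probe sets, 2826 were called present on both arrays, 853 on the Drd2-/- array only, 301 on the WT array only and 5180 on neither. The share called present was 40.2% on the Drd2-/- array and 34.1% on the WT array. For named probe sets the shares were 63.5% and 63.9% in the same order of arrays. The unnamed probe sets were dim: their median signal was 49.1 units in Drd2-/- and 29.9 units in WT, against 185.6 and 163.8 units for named probe sets. They made up 20.3% of the probe sets that were no control, yet carried 7.77% of the summed signal in Drd2-/- and 6.76% in WT.

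Of the 3980 unnamed probe sets present on at least 1 array, called detected below, 1315 were at least 2-fold higher in Drd2-/- (33.0%) and 33 were at least 2-fold lower (0.829%). Over all 28062 detected probe sets these shares were 9.72% and 0.791%, and over the detected named ones 5.91% and 0.788%. The quartiles of the unnamed log2 ratios were 0.00 and 1.24 around a median of 0.58, while the median of detected named probe sets was 0.00. At least 4-fold higher were 245 unnamed probe sets, against 1.37% of all detected probe sets. Where only 1 array called a probe set present, its ratio is a bound, taken against the dim signal or, if that was lower, against the lowest signal called present on the dim array. Where the array without a present call was the brighter one, the log2 ratio was set to 0, which held for 215 detected unnamed probe sets, 45 present on the Drd2-/- array only and 170 on the WT array only. Of the 1315 higher ones, 808 were present on both arrays and 507 on the Drd2-/- array only. Their median signals were 150.5 units in Drd2-/- and 50.7 units in WT.

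The unnamed probe sets were not alike in what their design text says. In 1072 of them that text carried a gene number, gene name or sequence accession that the RefSeq gene table holds, and these are called linked here and are counted without names. The other 8088, called unlinked, matched no entry of the table. The split was made after the values were seen. Linked probe sets resembled named ones: 62.3% were present in Drd2-/- and 62.4% in WT, the 702 detected ones had a median log2 ratio of -0.03, and 33 were at least 2-fold higher. Unlinked probe sets were present in 37.2% of cases in Drd2-/- and 30.4% in WT. Their 3278 detected members had a median log2 ratio of 0.75, and 1282 of them (39.1%) were at least 2-fold higher. Unlinked probe sets thus made up 1282 of the 1315 higher ones.

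Dim probe sets of named genes also gave more signal in Drd2-/-, so the unnamed ones were set beside named ones of like mean log2 signal, in 20 bins of equal size. The bin medians of unnamed probe sets, weighted by their number in each bin, averaged 0.61 on the log2 scale, and those of named ones 0.16, an excess of 0.46. The excess was 0.56 for unlinked and -0.03 for linked probe sets. At like signal, 39.1% of unlinked probe sets were at least 2-fold higher in Drd2-/-, against 13.8% of named ones. Shares for 2-fold lower signals were 0.885% of unlinked and 2.27% of named probe sets.

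The difference was not the same at every level. The unlinked share at least 2-fold higher lay between 37.4% and 44.0% in the 10 dimmest of the 20 bins, up to 361 units, while the named share was 30.6% in the dimmest bin and 4.16% between 294 and 361 units. Between 36.1 and 55.5 units the median log2 ratio was 0.78 for 440 unlinked and 0.27 for 924 named probe sets. Between 193.0 and 239.3 units it was 0.87 for 168 unlinked and 0.08 for 1187 named ones, and between 439.1 and 537.5 units it was 0.69 for 61 and -0.02 for 1290. The gap was thus no smaller in the middle of the signal range than at its dim end. It narrowed above that: between 1316 and 1792 units the medians were 0.11 for 18 unlinked and -0.10 for 1309 named probe sets. Above 2595 units none of 35 unlinked probe sets was 2-fold higher.

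Probe sets called absent on both arrays showed part of the same pattern. Of 5180 unnamed ones, 34.8% had a raw signal of at least 2-fold that of WT in Drd2-/- and 13.0% the reverse, with medians of 20.2 units in Drd2-/- and 13.3 units in WT. Over all probe sets present on neither array the shares were 28.1% and 13.6%. These signals lie below detection, so no fold change of a single probe set is given for them.

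The authors' deposited table gives each probe set a change call. Turned to Drd2-/- over WT, the authors' deposited table calls 1322 of the detected unnamed probe sets increased and 44 decreased, against 14.8% and 3.94% of all detected probe sets. Of the 1315 probe sets at least 2-fold higher by signal, the authors' deposited table calls 901 increased, 35 marginally increased and 379 unchanged.

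Ratios were ranked among unnamed probe sets present on both arrays with a geometric mean signal of at least 157 units. The highest were the following, all unlinked. Probe set 1433300_at, from the end of a single RIKEN cDNA of adult hippocampus, gave 629.1 units in Drd2-/- and 92.1 units in WT, a log2 ratio of 2.77. Probe set 1456159_at, from an EST cluster of 16 sequences, gave 454.1 units in Drd2-/- and 72.2 units in WT (2.65). Probe set 1446799_at, from a hypothalamus clone, gave 511.3 units in Drd2-/- and 85.1 units in WT (2.59). All 3 lay under 100 units in WT.

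The next 7 were EST clusters of 2 to 8 sequences. The log2 ratio was 2.45 for 1446632_at (629.6 units in Drd2-/-, 115.4 in WT), whose clone came from epididymis. It was 2.43 for 1442701_at (776.2 units in Drd2-/-, 144.4 in WT), from the head of the embryo. The brightest of the 10 was 1446065_at, with 1272.5 units in Drd2-/- and 248.9 units in WT, a log2 ratio of 2.35. Probe set 1457898_at gave 471.6 units in Drd2-/- and 89 units in WT (2.41). Probe set 1439299_at gave 435.9 units in Drd2-/- and 84.8 units in WT (2.36). Both also lay under 100 units in WT. Probe set 1459293_at, from a neonatal thymus clone, gave 602.4 units in Drd2-/- and 121.7 units in WT (2.31). Probe set 1444384_at gave 394 units in Drd2-/- and 81.6 units in WT (2.27). None of the 10 carries a description of a protein or RNA product.

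Present in Drd2-/- and absent in WT, with a signal of at least 157 units, were 113 unnamed probe sets, whereas 12 were present in WT and absent in Drd2-/-. These were 2.84% and 0.302% of the detected unnamed probe sets, against 0.877% and 0.845% of all detected ones. Named probe sets numbered 132 and 220 in the same order. The largest bound was that of 1442557_at, an EST cluster of 4 sequences, with 206.5 units in Drd2-/- and 9.3 units called absent in WT, at least 22.2-fold higher. Probe set 1458141_at gave 233.5 units in Drd2-/- and 23.8 in WT, at least 9.81-fold higher, and 1440628_at 225 units in Drd2-/- and 25.6 in WT, at least 8.79-fold higher. Both are EST clusters, of 3 and 5 sequences, from clones of embryonic testis and of the corpora quadrigemina of adult midbrain. Probe set 1445108_at, from a retina clone, gave 307.9 units in Drd2-/- and 44.1 units in WT. Probe set 1440682_at, from a hypothalamus clone, gave 419.8 units in Drd2-/- and 64.2 units in WT, and 1443216_at, from a colon clone, 178.5 units in Drd2-/- and 30.7 units in WT. In each the WT signal was called absent. The authors' deposited table calls 1440682_at unchanged, at a log ratio of 3.0, and the others named in this paragraph increased.

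Lower signals in Drd2-/- were fewer: of the 33 unnamed probe sets at least 2-fold lower, 5 were present on both arrays. Of the 10 lowest ratios among unnamed probe sets present on both arrays at a geometric mean of at least 157 units, 5 were linked. The other 5 were 1.58-fold to 1.75-fold lower in Drd2-/- and none reached 2-fold. Probe set 1444307_at gave 171.4 units in Drd2-/- and 299.1 units in WT, a log2 ratio of -0.80. Probe set 1446681_at, from a clone of the medulla oblongata, gave 564.5 units in Drd2-/- and 951.7 units in WT (-0.75). Both were called present on each array. Probe set 1441337_at gave 131.3 units in Drd2-/- and 217.2 units in WT (-0.73), and 1447771_at gave 480.7 units in Drd2-/- and 779 units in WT (-0.70). The smallest difference of the 5 was that of 1454644_at, with 243.7 units in Drd2-/- and 384.3 units in WT (-0.66). The authors' deposited table gives 1446681_at a log ratio of -0.3, and 1441337_at and 1454644_at -0.1 each. It calls 1447771_at decreased and the others of the 5 unchanged. Of those present in WT only, 1454056_at gave 206.6 units in Drd2-/- and 235.8 units in WT, and 1458433_at 187 units in Drd2-/- and 194.4 units in WT, so the calls of this pair differed more than their signals. The third unlinked one, not named here, gave 70.4 units in Drd2-/- and 160.7 units in WT, at least 2.28-fold lower in Drd2-/-. The 6 brightest unnamed probe sets were all linked.

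The design text gives for each probe set the kind of sequence it was built on (EST, other mRNA or full-length mRNA) and the kind of transcript end. The end is given as full length (FL), as a stack of sequences that share an end (Stack), as both (FL+Stack), or as the end of the cluster's consensus (ConsEnd). Grouping by these fields was decided after the values were seen. EST consensus ends made up 6018 of the 9160 unnamed probe sets and 2463 of the detected ones, with a median log2 ratio of 0.80 and 1018 of them (41.3%) at least 2-fold higher in Drd2-/-. The 3318 detected named probe sets of the same design had a median of 0.21, and 15.8% were at least 2-fold higher. The 449 detected unnamed consensus ends of other mRNAs had a median of 0.64, and the 1955 named ones 0.04.

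Unnamed probe sets built on EST stacks stood lower, with a median log2 ratio of 0.31 over 524 detected ones, against 0.00 for 6012 named ones. At the other end, the 202 detected unnamed probe sets of full-length mRNA with a stacked end had a median of -0.13, beside -0.12 for 4997 named ones, and 3 of them were at least 2-fold higher. Most of these were linked: 26 of the 202 were unlinked, with a median of 0.02. Within 1 design, unlinked probe sets had the higher median in each of 6 designs: EST or other mRNA with a consensus end or a stacked end, and full-length mRNA with an FL or an FL+Stack end. The FL ends without a stack had 0.67 over 26 unlinked and 0.00 over 2064 named probe sets.

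The number of sequences in the cluster behind a probe set varied with the ratio too. Unlinked probe sets from clusters of 3 to 5 sequences had a median log2 ratio of 0.83 over 1453 detected ones, while those from clusters of over 50 sequences had 0.08 over 80. For named probe sets the medians were 0.22 over 1973 and -0.08 over 10246. Small clusters were also the dimmer ones, with median signals of 110.7 units in Drd2-/- and 60.1 units in WT for the unlinked clusters of 3 to 5, against 702.3 and 643.2 units for those of over 50. Whether level or cluster size goes with the ratio was not tested apart.

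Named genes measured by both kinds of design showed the same direction within the gene. For 584 named genes with a detected EST consensus-end probe set and a detected full-length FL+Stack probe set, the median log2 ratio was 0.23 for the EST probe sets and -0.08 for the full-length ones. The EST ratio was the higher one in 426 of the 584 genes, at least 2-fold higher in 80 and at least 2-fold lower in 6. The EST probe sets of these genes were dimmer, at a median geometric mean signal of 158 units, against 862 units for the full-length ones. This comparison was also added after the values were seen.

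Some unlinked probe sets shared a sequence cluster, so that their signals are not independent of each other. In 72 clusters with at least 2 detected unlinked members, holding 156 probe sets, all members were above 0 in 39 clusters and all below 0 in 10. In 7 clusters every member was at least 2-fold higher in Drd2-/- and in 19 some but not all were, and the median range within a cluster was 0.35 on the log2 scale. Of all detected unlinked probe sets, 80.8% were above 0 and 39.1% were at least 2-fold higher. Whether cluster members went together more than unrelated probe sets was not tested. The pairs named next were picked from the 7 clusters. Probe sets 1429702_at and 1429703_at, both of the RIKEN cDNA 2900072G11, gave 353.5 and 359.3 units in Drd2-/-, against 74.9 and 75.8 units in WT. Probe sets 1433332_at and 1433333_at, of RIKEN cDNA C030004M13, lay at different levels, 52.4 and 1479.8 units in Drd2-/- against 13 and 537.2 units in WT. Their log2 ratios were 2.01, a bound because the WT signal was called absent, and 1.46.

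A cluster was shared with a detected named probe set for 41 unlinked ones, in clusters of 30 genes. The median log2 ratio was 0.24 for the 41 unlinked probe sets and 0.28 for their named partners, and 19 of the 41 lay above their partner. Of the 41, 8 were at least 2-fold higher in Drd2-/-, against 39.1% of all detected unlinked probe sets. The partners of all 8 were within 1.5-fold. Conversely, 4 of the 41 had a partner at least 2-fold higher, and none of these 4 reached 2-fold itself, with log2 ratios of 0.83, 0.78, -0.10 and -0.63. Unlinked probe sets whose cluster reached a named gene thus had a lower median than the 0.75 of all detected unlinked ones. The 2 medians were not compared at like signal or like design.

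For 2628 unnamed probe sets the library of the cDNA clone was known, 1114 from the text and 1514 through the first 4 characters of the RIKEN clone number, which stood for 1 library in each of the 117 cases seen. The library says where the clone was isolated, not where the RNA measured here came from. Of unlinked probe sets, 46.9% of the 714 from brain or head libraries were detected, against 31.7% of the 1529 from other tissues. The detected ones had median log2 ratios of 0.84 for brain or head (335 probe sets), 0.41 for eye (64) and 0.76 for other tissues (485). Named probe sets had 0.04, 0.02 and 0.00 in the same order. Unlinked probe sets thus had the higher median in all 3 tissue classes.

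By stage, unlinked probe sets from embryo libraries had a median log2 ratio of 0.88 over 197 detected ones, those from neonate libraries 0.86 over 185 and those from adult libraries 0.72 over 501. Single libraries with at least 20 detected unlinked probe sets numbered 17. The highest median, 1.45 over 33, was that of embryonic testis at 13 days, followed by a median of 1.30 over 24 for neonatal cerebellum at 16 days and 1.15 over 23 for adult olfactory brain. Adult diencephalon had 1.10 over 33, adult pituitary gland 0.87 over 25 and adult hippocampus 0.84 over 45. Adult testis, the largest library here, had 0.53 over 89. The lowest was 0.23 over 25 for adult medulla oblongata. The library of adult corpus striatum, the tissue measured here, had 0.66 over 26. In all 17 the unlinked median was above the named one.

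By series of clones the medians ran from 0.37 to 0.92. Unlinked probe sets from clones numbered by a letter and plate had a median log2 ratio of 0.92 over 881 detected ones, and those with RIKEN clone numbers 0.82 over 1422. IMAGE clones had 0.50 over 332, and UI-M clones, many of them from mouse brain, 0.37 over 295. Named probe sets of the same series had 0.07, 0.05, 0.00 and 0.00 in that order. Detected unlinked UI-M probe sets were somewhat brighter, with medians of 148.8 units in Drd2-/- and 101.3 units in WT, against 120.3 and 60.6 units for the letter and plate clones.

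A last group, chosen after its values were seen, was that of 106 unnamed probe sets whose text names a retroelement, the mobile sequences copied into the genome through RNA, or one of its proteins. Of these, 45 were detected, with a median log2 ratio of 0.75, and 16 were at least 2-fold higher in Drd2-/- (35.6%). This share lay near the 33.0% of detected unnamed probe sets without such text, whose median was 0.58. Among unlinked probe sets alone the medians were 0.77 with and 0.75 without such text. The brightest followed another direction from the median: 1455316_x_at, described as intracisternal A particles, gave 11789.4 units in Drd2-/- and 14123.1 units in WT, a log2 ratio of -0.26. A dimmer probe set of the same description, 1455650_at, was higher, with 111.3 units in Drd2-/- and 69.9 units in WT (0.67). Probe set 1427932_s_at, of the VL30 retroelement, gave 775.1 units in Drd2-/- and 635 units in WT (0.29). Probe set 1426060_at, similar to an L1 repeat, gave 613.5 units in Drd2-/- and 323.1 units in WT (0.93), and 1435583_at, weakly similar to a retrovirus-related pol polyprotein, gave 755.5 units in Drd2-/- and 228.3 units in WT (1.73). Such probes can bind RNA of many genomic copies, so a signal belongs to a family and not to 1 place.

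Named transcripts that stay in the nucleus and encode no protein were measured on the same arrays. All 7 of that list were above 0, as were 47.1% of detected named probe sets and 74.3% of detected unnamed ones. The 7 had a median log2 ratio of 0.53, from 0.06 for Miat to 1.81 for Snhg14. Their summed signal was 28508 units in Drd2-/- and 21874 units in WT. Xist was dim in these male samples, at 117.3 units in Drd2-/- and 60.8 units in WT, with 1 of its 3 probe sets detected. Of the 7, 2 were at least 2-fold higher in Drd2-/- at the probe set that stands for the gene, Malat1 (1.39) and Snhg14 (1.81). All 7 probe sets of Malat1, an abundant RNA of nuclear speckles, were at least 2-fold higher in Drd2-/-. The ratio of 3' to 5' control signals, a measure of RNA length, was 1.40 in Drd2-/- and 1.41 in WT for Actb, and 3.24 in Drd2-/- and 2.50 in WT for Pcx. The 4 controls of this kind differed between the arrays by 1.01-fold to 1.30-fold. What part any of these had in the higher signals of unnamed probe sets was not tested.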

How the data were processed

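Each array has 1 linear signal intensity per probe set, which the authors deposited after scaling, per the file headers. Detection p-values with calls of present, marginal or absent, a log2 Signal Log Ratio and change calls are in the authors' deposited comparison table, per the file headers. Its p-values do not come from replicate samples and are not printed. Which software made them, the sources used here do not give. All 45101 signals stand in that table under the opposite genotype name (91 are equal under the same name), so calls were attached to the signal beside them and log ratios turned to the sample labels. If its names were right, every sign would reverse. The trimmed mean, without 2% at each end, was 499.7 units in Drd2-/- and 500.0 units in WT.

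Signals below 0.1 were set to 0.1 and log2 ratios computed in Python (pandas 2.3.3, numpy 2.4.6). The lowest present signals, used for bounds, were 5.9 units in Drd2-/- and 5 units in WT. Members and lists were chosen with earlier results of these data known. Single probe sets were named by rule: the 10 highest and 10 lowest ratios among those present on both arrays with a geometric mean signal of at least 157 units, the median of such unnamed probe sets; up to 6 present on 1 array only per direction; and the 6 brightest. Linked ones among them, and 1 present in WT only, are not named here. Probe sets of shared clusters and of retroelements fell outside this rule, having been chosen once their values were known. Genes were linked through NCBI RefSeq's table of mouse assembly GRCm38.p6. Symbols came from GEO's platform annotation. 2 of 10 striatal markers and 1 of 6 cortical markers had no probe set under their symbol and were not analysed here. Of 5 oligodendrocyte markers, 4 had a probe set under their symbol. Alternatives were other scalings, 32 units added to each signal, other detection filters, other matching and the authors' log ratio.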

Additional observations from a re-analysis of the deposited data

How the results depend on the processing

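No alternative that was run turned the excess of higher signals round. The median log2 ratio of detected unnamed probe sets, 0.58, was 0.29 after quantile normalization, 0.31 after intensity-dependent centring, 0.41 with 32 units added to each signal and 0.75 for unlinked members alone. The signal-matched excess, 0.46, was 0.36 after intensity-dependent centring, 0.34 with 32 units added, 0.31 with no filter on detection, 0.35 when matched on the WT signal alone and 0.56 for unlinked members alone. The 1315 higher probe sets became 880 after quantile normalization, 898 after intensity-dependent centring and 742 with 32 units added. They became 808 when presence on both arrays was required and 3117 with no filter. The 33 lower ones became 90 after quantile normalization, 97 after intensity-dependent centring, 4 with 32 units added, 19 by the authors' log ratio, 5 when presence on both was required and 705 with no filter. Of the probe sets past 2-fold, 97.6% of unnamed and 88.2% of named ones were higher; quantile normalization gave 90.7% and 62.1%, and intensity-dependent centring 90.3% and 64.6%. Matching EST consensus ends only with named probe sets of that design, added after the values were seen, gave an excess of 0.45. Of the single probe sets picked by rule, 1 changed sign: 1454056_at, at -0.19 by signal and 0.3 by the authors' log ratio. The causes were not tested. No paired analysis was possible because each genotype has 1 array. Without replicates, no difference here has an error, and signals near the lowest present ones set only bounds.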
